A study of Mus musculus with 14 samples.

Results

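The wild-type transcriptome described here is that of mouse embryonic stem cells (ESCs), and its members are the genes with at least 1 sequencing count in either of 2 wild-type (WT) RNA-seq libraries, WT replicate 1 and WT replicate 2. Of 25105 gene rows in the count table, 15289 were members: 14318 had a count in replicate 1, 13595 in replicate 2 and 12624 in both. The series holds 14 samples in 8 groups and asks which proteins and genome sites act at the Nanog promoter. These 2 libraries are its wild-type RNA reference, and no other sample is compared here. The cells carried the WT genotype on the C57BL/6 strain background. They were grown on gelatin-coated dishes in serum-containing medium with leukemia inhibitory factor (LIF), the MEK inhibitor PD0325901 and the GSK3 inhibitor CHIR99021. The labels name no cell line, passage or sex, and do not say whether the replicates came from separate cultures, so the spread between them may be technical.

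Mouse ESCs are derived from the inner cell mass of the blastocyst and can give rise to every tissue of the embryo. LIF acts through the receptor Lifr and the transcription factor Stat3, inhibition of MEK lowers signalling through ERK, which otherwise favours exit from pluripotency, and inhibition of GSK3 stabilises beta-catenin and relieves repression by Tcf7l1. Cells kept under these signals are said to be in the naive state, with Nanog, Esrrb, Klf and Tfcp2l1 factors around the Pou5f1 and Sox2 core, and with few transcripts of differentiated lineages.

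The 2 libraries held 2365580 and 1284358 counts in named genes. Levels are given as counts per 1000000 of those totals (CPM), as the mean of both libraries with its SD (n = 2). CPM is a share of reads and not a level per transcript length, since transcript lengths were not used here, so a rank by CPM orders genes by read share only. A gene with 0 counts in both libraries could still have a level of up to 0.822 CPM, which is 3 counts over the pooled total, and the limit within a library was 1.27 CPM in replicate 1 and 2.34 CPM in replicate 2. These limits cover counting error only. By mean CPM, 12818 genes (51.1% of all named rows) reached 1 CPM, 8164 (32.5%) reached 10, 2058 (8.20%) reached 100 and 112 (0.446%) reached 1000. In both libraries, 7587 genes reached 10 CPM, which is 30.2% of all named rows.

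Reads were concentrated in few genes. The 10 genes with the highest mean CPM held 8.35% of the counts, the top 100 held 23.6% and the top 1000 held 60.4%, while 587 genes were enough for 50% and 4436 for 90%. The median detected gene stood at 12.3 CPM. At the lower end, 2471 genes under 1 CPM together held 0.119% of the counts, and 1225 members rested on a single count.

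**Figure D1:**
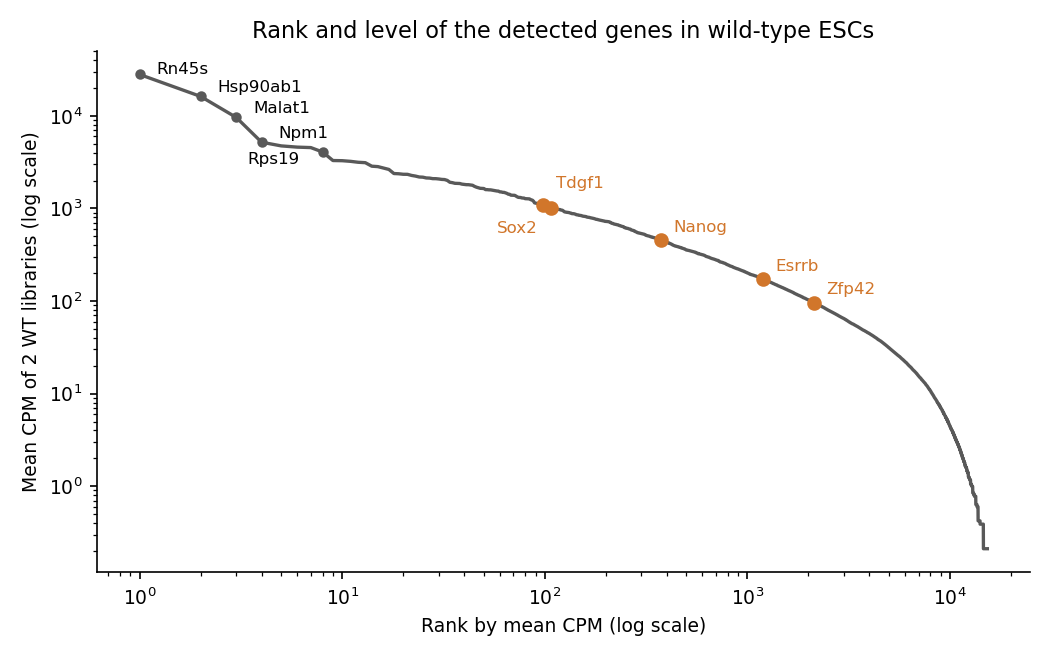
Mean CPM of the 2 WT libraries (y axis, log scale) against rank (x axis, log scale) for the 15289 detected genes. Grey points mark named genes among the top 10 and orange points the 5 identity markers, of which Tdgf1 and Sox2 lie near rank 100 at about 1000 CPM and Zfp42 lies at rank 2133.

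The row with most reads was Rn45s, the 45S precursor of ribosomal RNA, at 20831 CPM in replicate 1 and 35147 CPM in replicate 2. Its share thus differed by 1.69 times between the libraries, and its part in other differences between them was not tested. Second was Hsp90ab1, the constitutive cytosolic HSP90 chaperone, at 15721 and 16713 CPM (16217 ± 701). Malat1, a nuclear long non-coding RNA, followed at 10023 and 9205 CPM. The next genes were nucleolar or translational: Npm1 (nucleophosmin) at 5192 ± 179 CPM, Pabpc1 (the poly(A)-binding protein of the cytoplasm) at 4738 ± 555, Ncl (nucleolin) at 4594 ± 262 and Eif2s2 (a subunit of initiation factor eIF2) at 4542 ± 588. Neighbours in this order, from Pabpc1 to Eif2s2, were closer to each other than their SDs.

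Of the 30 genes with the highest mean CPM, 14 encode proteins of the cytosolic ribosome. The others included Psma7, a subunit of the 20S proteasome core (2823 and 2836 CPM), Serbp1, an mRNA-binding protein (2860 ± 317), Rack1, a scaffold on the small ribosomal subunit (2638 ± 28.1), and Actb, cytoplasmic beta-actin (2339 ± 384). The metallothioneins Mt1 and Mt2, small cysteine-rich proteins that bind zinc, stood at 2186 ± 87.4 and 2236 ± 371 CPM. The inducible HSP90 gene Hsp90aa1 had 2176 ± 217 CPM, fewer reads than its constitutive relative Hsp90ab1 in both libraries. Srrm2, a component of nuclear speckles, was at 2273 ± 311 and the transcriptional coactivator Sub1 at 2127 ± 91.2.

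The cytosolic ribosomal proteins were the gene family with the largest share of reads among the 23 families defined by symbol. Their 86 rows, which include relatives such as Rpl3l and the transcribed pseudogene Rps4l, held 10.2% of the counts in replicate 1 and 8.53% in replicate 2. On average 81 of them (94.2%) reached 10 CPM, beside 38.6% of protein-coding rows. Of the 86 rows, 37 reached 1000 CPM, beside 0.446% of all named rows, and the median was 834 CPM. Rps19 was highest (4218 and 3924 CPM), followed by Rps14 (3389 and 3195) and Rpl4 (3795 and 2762). The share was lower in replicate 2. With Rn45s left out of the totals the mean share over both libraries was 9.65%, against 9.39% with it. That mean does not compare the libraries, and the part of Rn45s in their difference was not tested.

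Transcripts of ribosomal proteins are known to begin with a C inside a run of pyrimidines, the terminal oligopyrimidine tract through which their translation is controlled. A run was counted as a C followed by at least 5 further pyrimidines. The C and the first 5 had to lie wholly between 10 bases before the annotated start and 12 bases from it. Among 64 of these genes with a promoter in the RefSeq table (GRCm38.p6), 32 (50.0%) had such a run, beside 17.1% of all 16390 promoters compared. The 30 bases around the start, 10 before it and 20 from it, are shown for 6 abundant genes that have such a run, with the run in capitals:
Rpl31 (chr1:39367841-39367870, + strand): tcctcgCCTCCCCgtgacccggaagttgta
Rps18 (chr17:33955646-33955675, - strand): cacttccgCTCTCTCTTCCacaggaggcct
Rps26 (chr10:128626487-128626516, - strand): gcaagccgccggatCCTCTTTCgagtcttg
Rpl14 (chr9:120571507-120571536, + strand): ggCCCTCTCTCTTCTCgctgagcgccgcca
Rpl38 (chr11:114668570-114668599, + strand): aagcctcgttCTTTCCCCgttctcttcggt
Rps2 (chr17:24720053-24720082, + strand): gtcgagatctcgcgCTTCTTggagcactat
The runs were 7, 11, 8, 14, 8 and 6 bases long in that order, and the genes stood at 3152, 2369, 2080, 1830, 1671 and 1575 CPM. The run is a match of letters in a window around the annotated start, which need not be the start used in these cells.

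**Figure D2:**
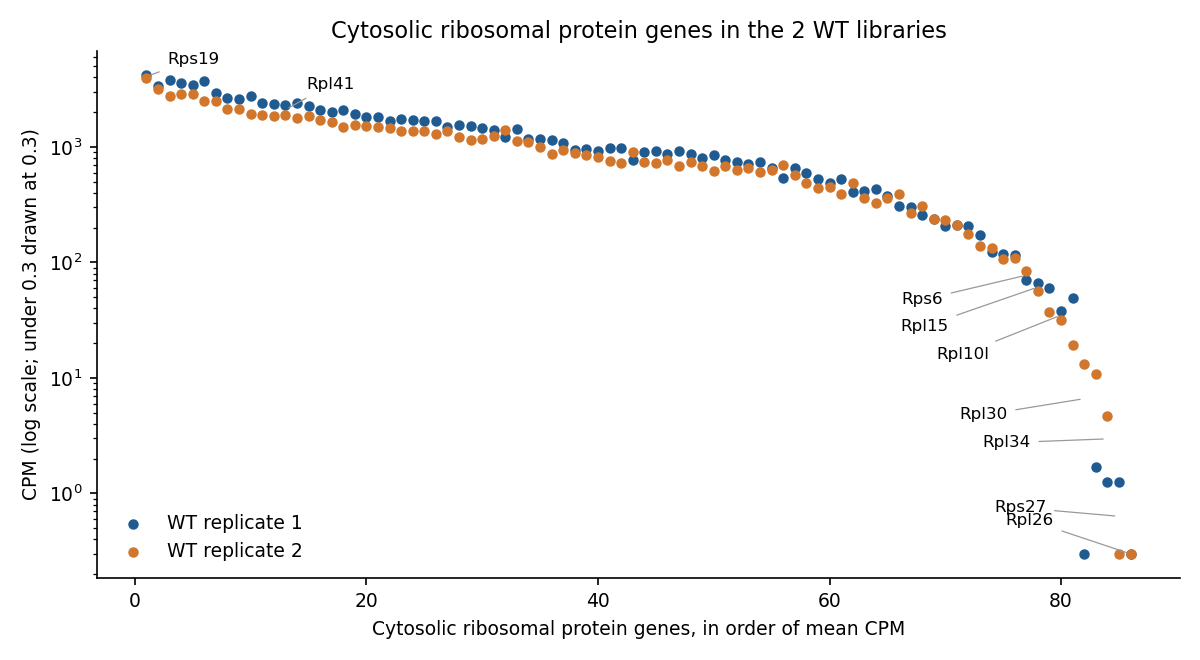
CPM (y axis, log scale) of the 86 cytosolic ribosomal protein rows in order of mean CPM (x axis), with WT replicate 1 in blue and WT replicate 2 in orange. Most rows lie between 100 and 4000 CPM in both libraries, and 5 rows lie under 10 CPM on average: Rpl30, Rpl3l, Rpl34, Rps27 and Rpl26.

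Some ribosomal protein genes had few reads, although their products are parts of the same particle. Rpl26 had 0 counts in both libraries, Rps27 had 3 counts in replicate 1 and 0 in replicate 2, Rpl34 had 3 and 6, and Rpl30 had 0 and 17. Rpl15 (61.2 ± 7.29 CPM) and Rps6 (77.5 ± 10.4 CPM) were also low. Ribosomal protein genes have many near-identical processed copies in the mouse genome. The sources used here do not say how reads shared by copies were counted, and the levels of these genes are therefore uncertain. By its symbols, the RefSeq table names 6 copies of Rpl26 as pseudogenes and 10 of Rpl30, but also 13 of Rps19, the highest of the family. The 20 rows with no named copy had a median of 1361 CPM and the 66 rows with at least 1 had a median of 802 CPM. Over all protein-coding genes the order was the opposite, with medians of 3.04 CPM for 20025 genes without a named copy and 45.3 CPM for 464 genes with at least 1. The part of copies in these levels was not tested.

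Other housekeeping families followed. Subunits of the respiratory chain and ATP synthase held 4.09% and 3.78% of counts in the 2 libraries. On average 74 of their 83 rows reached 100 CPM, beside 8.20% of all named rows. This family was led by Atp5b (1866 ± 218 CPM), Uqcr10 (1779 ± 10.2) and Cox5a (1510 ± 79.6). Chaperones and heat shock proteins held 3.31% and 3.36%, and Hsp90ab1 alone was 1.62% of all counts. Translation initiation and elongation factors held 2.79% and 2.61%. Proteasome subunits held 1.56% and 1.48%, with 36 of 39 rows (92.3%) at 10 CPM or more on average, beside 38.6% of protein-coding rows. Proteins of the mitochondrial ribosome held 1.16% and 1.07%, and Mrps24 was highest at 796 and 776 CPM. None of their 78 rows reached 1000 CPM, beside 0.446% of all named rows. RNA-binding hnRNP and SR proteins, which act in splicing, held 0.834% and 0.945%.

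The glycolysis list showed a similar split. Ldha (lactate dehydrogenase A), Pkm (pyruvate kinase) and Aldoa (aldolase A) stood at 1053 ± 120, 1044 ± 20.4 and 956 ± 11.3 CPM, the glucose transporters Slc2a3 and Slc2a1 at 367 ± 21.1 and 178 ± 46.5, and the hexokinase Hk2 at 348 ± 69.8. Gpi1, Pfkp and Tpi1, which act between these steps, stood at 216 ± 6.53, 194 ± 29.7 and 159 ± 27.0 CPM. The consecutive enzymes from Gapdh to Eno1 were lower: Gapdh had 71 and 38 counts (29.8 ± 0.302 CPM), Eno1 85 and 37 (32.4 ± 5.04), Pgk1 13 and 13 (7.81 ± 3.27) and Pgam1 4 and 5 (2.79 ± 1.56). The RefSeq table names 3 copies of Gapdh, 3 of Pgk1 and 2 of Pgam1, and none of Eno1, Hk1, Pfkm or Pfkl. It also names 3 of Ldha and 5 of Aldoa, which were high. The levels of the genes with named copies are uncertain in the same way. Only copies named after their gene were counted, and the part of copies in the levels of this list was not tested.

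The identity of the cells was checked with 5 markers of ESCs, and all 5 were well above the detection limit in both libraries. Sox2, a core pluripotency transcription factor (chr3:34649995-34652461), had 994 and 1032 CPM and rank 107. Tdgf1, a NODAL co-receptor known as Cripto (chr9), had 1109 and 1073 CPM and rank 98. Nanog, the homeodomain factor of the naive state (chr6:122707489-122714633), had 452 and 461 CPM and rank 375. Esrrb, an orphan nuclear receptor, had 185 and 160 CPM (rank 1199), and Zfp42, also known as Rex1, had 96.8 and 95.8 CPM (rank 2133). The ratio of replicate 2 to replicate 1 lay between 0.868 (Esrrb) and 1.04 (Sox2) for the 5 genes.

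Of 12 core pluripotency genes, 10 (83.3%) reached 10 CPM in both libraries and the median was 207 CPM. That level was reached in both libraries by 30.2% of all named rows and 35.9% of protein-coding rows. Besides the markers, the zinc finger factor Sall4 (387 ± 85.2 CPM), Fgf4, the growth factor that ESCs secrete (311 ± 25.7), Fbxo15 (213 ± 5.09), Dppa4 (201 ± 18.9) and Utf1 (91.3 ± 3.00) were all detected. The RNA-binding proteins Lin28a (9.04 ± 2.63) and Lin28b (8.69 ± 0.927) were the 2 below 10 CPM. Pou5f1, which encodes Oct4, had only 82 and 49 counts, a level of 36.4 ± 2.47 CPM at rank 4586. The RefSeq table names 7 copies of Pou5f1, so reads of the gene and of its copies cannot be told apart here, and 36.4 CPM is not a level of Oct4 mRNA that can be set beside Sox2 or Nanog.

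Naive pluripotency genes were nearly all expressed, with a median of 155 CPM. In both libraries, 15 of 16 (93.8%) reached 10 CPM, beside 35.9% of protein-coding rows. Dppa5a, an RNA-binding protein of early embryos and ESCs, was highest at 937 and 793 CPM. The Kruppel-like factors Klf2, Klf4 and Klf5 stood at 422 ± 64.1, 267 ± 64.3 and 137 ± 32.4 CPM and were each lower in replicate 2. Dppa3, known as Stella, was at 262 ± 14.4, Tfcp2l1 at 238 ± 82.2, Tbx3 at 201 ± 37.0 and Tet2, a methylcytosine dioxygenase, at 173 ± 70.8 CPM. Prdm14, which restrains FGF signalling and DNA methylation, had 38.8 ± 10.1 CPM. Gbx2 was the 1 member under 10 CPM, at 4.48 ± 0.834.

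Genes of the formative and primed states, through which cells pass as they leave naive pluripotency, were mixed. Fgf5, the usual marker of the epiblast after implantation, had 0 counts in both libraries. Otx2 had 21 and 4 counts (6.00 ± 4.08 CPM), Sox3 0 and 1, and Pou3f1 57 and 16 (18.3 ± 8.23 CPM). By contrast Dnmt3b (94.9 ± 17.7), Zic2 (87.0 ± 20.2), Dnmt3a (68.8 ± 32.7), Lef1 (40.6 ± 2.36) and Sox4 (42.3 and 35.8) were present. In both libraries, 7 of 13 (53.8%) reached 10 CPM, beside 35.9% of protein-coding rows. None of the 11 measured genes of the two-cell-like state, a rare state of ESC cultures with transcripts of the cleavage embryo, reached 10 CPM. Zscan4c had 1 count in each library, Zscan4d 1 and 0, Zscan4f 2 and 0, and Zfp352 none, while Gm8300 was highest at 5.26 ± 0.267 CPM.

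The pathways that the medium acts on were represented unevenly. For LIF, the receptor Lifr (84.2 ± 18.6 CPM), its partner Il6st, or gp130 (45.2 ± 13.1), the kinase Jak1 (65.5 ± 11.9), Stat3 (67.4 ± 17.1) and its target Socs3 (21.5 ± 1.83) were all above 10 CPM in both libraries, and Jak2 had 14 and 2 counts. Among 12 genes known to respond to MEK and ERK, Spry4 and Fosl1 had 0 counts, Myc 1 and 2, Dusp4 0 and 2, Etv4 4 and 0, and Dusp6 8 and 6 counts (4.03 ± 0.912 CPM). The 3 genes of the list above 10 CPM in both libraries (25.0%, beside 35.9% of protein-coding rows) were Etv5 (123 ± 9.44 CPM), Ccnd1 (88.0 ± 10.9) and Spry2 (86.4 ± 38.5). No library without the inhibitors was compared, so these are levels and not responses.

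Some genes of that list differed between the 2 libraries. Spry2 had 59.2 CPM in replicate 1 and 114 in replicate 2. Fos had 16 counts in replicate 1 and 58 in replicate 2 (6.76 and 45.2 CPM), and Egr1 had 8 and 38 (3.38 and 29.6 CPM). Fos and Egr1 encode transcription factors known as immediate early genes, and all 3 were higher in the library with fewer counts in all.

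In the WNT list, 9 of 12 genes (75.0%) reached 10 CPM in both libraries, beside 35.9% of protein-coding rows. Beta-catenin (Ctnnb1, 264 ± 78.1 CPM), the inhibited kinase Gsk3b (142 ± 12.6) and the DNA-binding partner Tcf7l1 (114 ± 26.4) were highest. The feedback target Axin2 had 13.9 and 28.8 CPM, Znrf3, a ubiquitin ligase that removes WNT receptors, had 39.3 and 59.2, and Sp5 had 11 and 2 counts. The mesoderm gene T, a target of WNT in other settings, had 0 counts. In the BMP list, 9 of 10 genes (90.0%) reached 10 CPM in both libraries. The Id genes, inhibitors of differentiation, ran from 13.6 ± 0.505 CPM for Id1 to 46.2 ± 5.84 for Id4, while Bmp4 itself had 1 count in replicate 1.

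Of the DNA methylation genes, 7 of 8 (87.5%) reached 10 CPM in both libraries, beside 35.9% of protein-coding rows. They were led by Tet1, which oxidises methylcytosine, at 839 and 917 CPM. Uhrf1, which brings the maintenance enzyme to DNA, had 279 ± 0.113 CPM and the maintenance enzyme Dnmt1 182 ± 14.9. The de novo enzymes Dnmt3b and Dnmt3a were below these, and their cofactor Dnmt3l had 26.8 ± 6.18 CPM. Of 18 cyclins, kinases and inhibitors of the cell cycle, 13 (72.2%) reached 10 CPM in both libraries. Ccnb2 and Ccnb1, the mitotic cyclins, stood at 342 ± 31.4 and 318 ± 38.0, Ccna2 at 130 ± 23.7, and the D cyclins Ccnd2 and Ccnd3 at 5.52 ± 5.41 and 4.13 ± 2.53. The inhibitor Cdkn1a, or p21, was the highest member of the list, at 835 and 688 CPM.

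Markers of 13 differentiated or extraembryonic lineages, 146 genes in all, had a median of 0.845 CPM, beside 1.17 CPM over all named rows and 3.11 CPM over protein-coding rows. In both libraries, 31 of them (21.2%) reached 10 CPM, beside 30.2% of all named rows and 35.9% of protein-coding rows. No count was found for 43 (29.5%), beside 39.1% of all named rows and 31.6% of protein-coding rows, and 75 (51.4%) were under 1 CPM on average, beside 48.9% and 41.4%. In 8 of the 13 lists the median gene was under 1 CPM. These are bulk libraries, in which a small number of differentiated cells and a low level in every cell cannot be told apart.

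**Figure D3:**
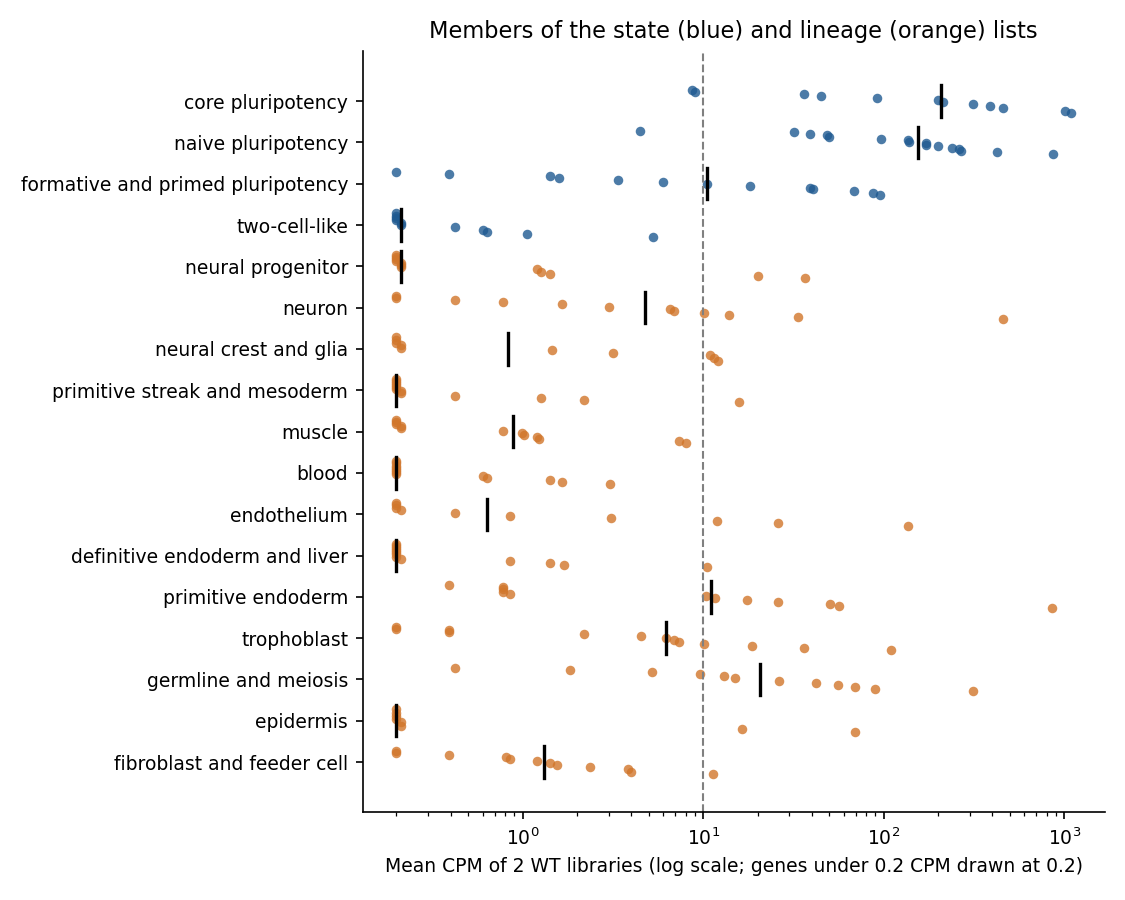
Mean CPM of the 2 WT libraries (x axis, log scale) for each member of the 4 state lists (blue) and 13 lineage lists (orange), 1 point per gene, with the list median as a black bar, a dashed line at 10 CPM, and genes under 0.2 CPM drawn at 0.2. The core and naive pluripotency lists have medians above 100 CPM, and the medians of the lineage lists other than primitive endoderm and germline lie under 10 CPM.

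In blood, in muscle and in definitive endoderm with liver, no member reached 10 CPM in both libraries. Of protein-coding rows, 35.9% reached that level in both libraries and 31.6% had no count. Among blood genes, 7 of 12 genes (58.3%) had no count, among them the 5 haemoglobin genes listed, Ptprc (CD45) and Cd34. Its highest members were Runx1 (3.04 ± 0.110 CPM) and Spi1 (1.66 ± 1.24). In muscle, 3 of 12 genes (25.0%), Myod1, Myh7 and Ckm, had no count, a smaller share than among protein-coding rows. Tnni3 (8.01 ± 3.62) and Des (7.31 ± 0.425) were highest in the muscle list. Among genes of definitive endoderm and liver, 7 of 12 (58.3%) had no count, including Alb, Ttr, Foxa2 and Hnf4a. Cdx1, which the WNT list also holds, was highest at 13.1 and 7.79 CPM.

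The primitive streak list had 6 of 12 genes (50.0%) without a count, among them T and Mesp1, beside 31.6% of protein-coding rows. Gsc was the 1 member above 10 CPM in both libraries (16.1 and 15.6), ahead of Eomes (2.19 ± 1.31). Of the neural progenitor genes, Nes (36.9 ± 7.02) and Olig2 (23.7 and 16.4) were above 10 CPM, whereas Sox1 had 1 count, Pax6 2 and 2, and Neurog2, Hes5 and Emx2 none. Neural crest and glia were led by Foxd3 (12.0 ± 2.71), a factor that ESCs also use, and Erbb3 (11.5 ± 1.34), with no count of Sox10 or Gfap. In the epidermal list the basal keratins Krt5 and Krt14 and the factor Trp63 had no count, while Sfn (69.6 ± 2.62) and Krt10 (16.5 ± 2.39) did.

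Serum-grown ESCs are often kept on feeder fibroblasts, so a fibroblast list was used to look for other cells. Its 12 genes summed to 21.1 CPM in replicate 1 and 34.3 CPM in replicate 2. Col1a1 was the 1 gene above 10 CPM (24 and 16 counts, 11.3 ± 1.63 CPM) and Col1a2 came next with 4 and 8 counts, while S100a4 and Lum had none.

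Of the 146 lineage genes, 5 were at 100 CPM or more, and their lists were not all low otherwise. In the primitive endoderm list the median was 11.0 CPM, and 7 of 12 members (58.3%) reached 10 CPM on average, beside 38.6% of protein-coding rows. The trophoblast and neuron lists had medians of 6.21 and 4.77 CPM, beside 3.11 CPM over protein-coding rows. Sparc, a matrix glycoprotein that parietal endoderm makes in quantity, had 883 and 825 CPM and made up 82.9% of the sum of the primitive endoderm list. The transcription factors and receptor that define that lineage were near the limit: Gata4 had 0 and 1 counts, Gata6, Sox7 and Pdgfra 0 and 2 each, and Sox17 4 and 0. The laminins Lamc1 (56.6 ± 17.9), Lamb1 (50.2 ± 0.514) and Lama1 (17.4 ± 5.89) lay between. So did the collagens Col4a1 (25.9 ± 0.784) and Col4a2 (11.7 ± 3.33), and Dab2 (10.4 ± 5.13). Stmn2, a microtubule regulator of neurons, had 520 and 394 CPM, 85.6% of the neuron list. In that list Nefl was next at 33.6 ± 5.68, Tubb3 had 13.9 ± 5.40, Rbfox3 had 10.1 ± 0.0168, and Dcx and Syp had no count. Pecam1, known from endothelium and also from naive ESCs, had 136 ± 0.694 CPM. Tek (25.9 ± 8.52) and Eng (12.0 ± 0.410) followed, with no count of Cdh5, Tie1 or Emcn. Tfap2c, shared by trophoblast and germ cells, had 80.7 and 139 CPM, followed in the trophoblast list by Esx1 (36.4 ± 2.47) and Krt18 (18.7 ± 2.24). Gata3 had 10.1 ± 2.28 CPM and Eomes 2.19 ± 1.31, while Cdx2 had no count and Elf5 and Hand1 had 1 each. In the trophoblast list 30.8% of members were under 1 CPM on average, beside 41.4% of protein-coding rows.

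Germline genes formed the lineage list with the highest median, 20.7 CPM. In both libraries, 8 of 12 of them (66.7%) reached 10 CPM, beside 35.9% of protein-coding rows. Dazl, an RNA-binding protein of germ cells, had 324 and 297 CPM and Hormad1, a protein of meiotic chromosome axes, 79.5 and 100.4. Sycp1 and Sycp3, of the synaptonemal complex, had 69.5 ± 0.827 and 42.4 ± 2.76 CPM, and Stra8, the retinoic acid target that marks entry into meiosis, had 56.2 ± 1.26. The helicase Ddx4 (15.1 ± 3.99) and Mael (13.1 ± 3.54), which act in piRNA biology, were lower. Tdrd1, of the same pathway, had 2 and 0 counts and Prdm1, a determinant of primordial germ cells, 5 and 2.

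Among 22 pairs of a widely expressed gene and a relative restricted to certain tissues, the restricted gene had fewer reads in both libraries in 21, and 5 of the restricted genes had none. The pairs are not all separate, since Actb, Eno1 and Aldoa each stand in more than 1. They also include Gapdh and Pgk1, whose levels are uncertain as described above. Eef1a1, elongation factor 1 alpha, had 4456 and 2219 counts against 0 and 1 for its neuron and muscle relative Eef1a2. Pkm had 2503 and 1322 counts against none for Pklr, Cox4i1 3051 and 1601 against none for Cox4i2, and Npm1 5192 ± 179 CPM against 3.18 ± 2.11 for the oocyte gene Npm2. The difference was smaller for enolase (Eno1 32.4 ± 5.04, Eno3 11.9 ± 0.738) and for Rpl10 (112 ± 4.23) with its testis relative Rpl10l (35.0 ± 4.33). The exception was cytochrome c: the testis gene Cyct had 362 and 361 CPM, and the somatic gene Cycs 52.4 and 58.4. The table names 3 copies of Cycs and none of Cyct, and the part of those copies was not tested.

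Large families of sensory and barrier tissues were nearly empty, where 60.9% of all named rows and 68.4% of protein-coding rows had a count. Of 1133 olfactory receptor rows, 23 (2.03%) had a count, with 38 counts in all, and of 332 vomeronasal receptor rows 10 (3.01%) had one. Keratin-associated proteins had a count in 2 of 54 rows (3.70%) and defensins in 3 of 70 (4.29%). The Hox genes, which set position along the body axis, had a count in 22 of 39 rows (56.4%), near the share of all named rows. None of them reached 10 CPM on average, beside 32.5% of all named rows. The highest were Hoxc13 (8.54 ± 1.07), Hoxb9 (7.31 ± 0.425) and Hoxc4 (6.99 ± 3.27). Keratins reached 10 CPM in 3 of 51 rows (Krt42, Krt18 and Krt10), collagens in 5 of 44, led by Col18a1 (131 ± 20.5), and cytochromes P450 in 4 of 103. Of 393 zinc finger genes named Zfp, 185 (47.1%) reached 10 CPM on average, and of 377 solute carriers 111 (29.4%) did, beside 32.5% of all named rows and 38.6% of protein-coding rows.

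The promoters of the genes were compared by level class. CpG-rich promoters (CpG islands) usually lack DNA methylation and serve housekeeping and developmental genes, while tissue-specific genes more often have CpG-poor promoters with a TATA box. A RefSeq promoter of 250 bases before and 50 after the start was available for 16390 of 20764 protein-coding rows. A promoter was counted as CpG-rich with at least 55% G and C and a ratio of observed to expected CpG of at least 0.6 over the 300 bases. 5 are shown, as the 250 bases before the start with each CG in capitals: an abundant CpG-rich gene, Ncl, a germline gene with reads, Dazl, a lineage factor with no reads although CpG-rich, Cdx2, an abundant marker that is CpG-poor, Tdgf1, and a liver gene with no reads, Alb:
Ncl (chr1:86359456-86359705, - strand): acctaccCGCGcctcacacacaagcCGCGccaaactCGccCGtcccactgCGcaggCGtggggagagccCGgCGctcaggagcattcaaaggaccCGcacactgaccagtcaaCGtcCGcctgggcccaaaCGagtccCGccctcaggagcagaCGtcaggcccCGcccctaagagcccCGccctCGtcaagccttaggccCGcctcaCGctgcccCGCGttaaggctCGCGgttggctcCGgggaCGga
Dazl (chr17:50293621-50293870, - strand): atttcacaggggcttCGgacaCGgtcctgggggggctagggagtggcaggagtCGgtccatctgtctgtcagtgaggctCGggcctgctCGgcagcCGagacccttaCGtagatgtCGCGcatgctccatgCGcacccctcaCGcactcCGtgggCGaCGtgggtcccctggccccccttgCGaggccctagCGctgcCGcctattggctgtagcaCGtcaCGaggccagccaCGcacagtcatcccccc
Cdx2 (chr5:147307250-147307499, - strand): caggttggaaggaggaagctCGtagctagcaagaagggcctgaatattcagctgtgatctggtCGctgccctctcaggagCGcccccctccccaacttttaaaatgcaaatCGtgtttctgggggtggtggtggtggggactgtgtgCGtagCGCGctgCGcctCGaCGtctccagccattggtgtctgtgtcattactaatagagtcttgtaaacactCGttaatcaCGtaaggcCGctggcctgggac
Tdgf1 (chr9:110946159-110946408, - strand): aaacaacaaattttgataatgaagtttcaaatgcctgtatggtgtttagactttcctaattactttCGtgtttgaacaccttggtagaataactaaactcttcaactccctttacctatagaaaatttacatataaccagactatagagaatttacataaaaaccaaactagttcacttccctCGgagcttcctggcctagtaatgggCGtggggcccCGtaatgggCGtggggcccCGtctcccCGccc
Alb (chr5:90460620-90460869, + strand): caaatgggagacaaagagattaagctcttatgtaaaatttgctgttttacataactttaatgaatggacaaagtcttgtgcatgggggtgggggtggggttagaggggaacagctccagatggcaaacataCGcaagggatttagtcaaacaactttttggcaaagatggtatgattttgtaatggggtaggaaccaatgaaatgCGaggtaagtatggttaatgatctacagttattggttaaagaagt
These stretches hold 27 CGs for Ncl, 20 for Dazl, 13 for Cdx2, 7 for Tdgf1 and 2 for Alb. The mean levels of the 5 genes were 4594, 311, 0, 1091 and 0 CPM.

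Over all genes with a promoter, 43.3% were CpG-rich. The share was 10.0% among genes with 0 counts, 30.5% under 1 CPM, 51.7% from 1 to 10, 67.1% from 10 to 100, 72.6% from 100 to 1000 and 68.3% at 1000 CPM or more. The last class is small, with 56 of 82 promoters CpG-rich. Read the other way, 62.7% of the 7104 genes with a CpG-rich promoter reached 10 CPM on average, and 22.2% of the 9286 others did. A TATA-type match (TATAAA on the gene's strand, 50 to 11 bases before the start) was found in 3.20% of promoters. It was found in 6.78% of those of genes with 0 counts, in 0.923% of those at 10 to 100 CPM and in 3.66% (3 of 82) of those at 1000 CPM or more. An ETS-type match (CCGGAAG or its reverse complement CTTCCGG) was found in 12.4% of all promoters, 2.35% at 0 counts and 24.5% at 100 to 1000 CPM. The CCAAT box (CCAAT or ATTGG) differed little, from 35.6% to 42.7% over the classes. These are matches of letters, counted over genes, and they name no factor that is bound.

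**Figure D4:**
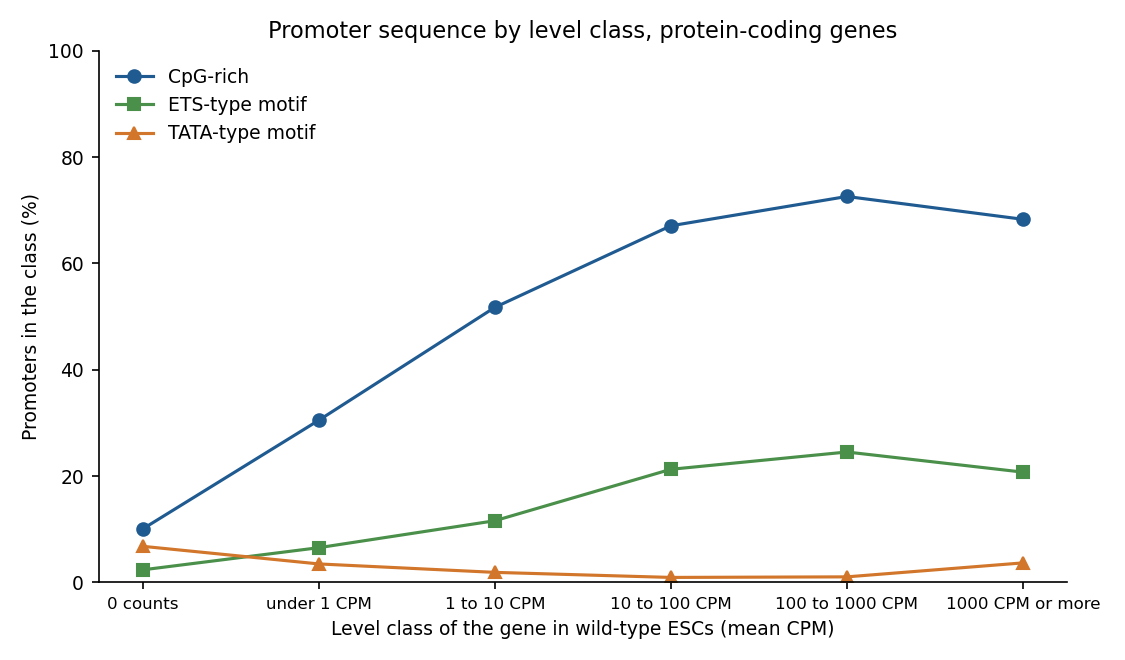
Share of promoters (y axis, %) that were CpG-rich (blue circles), held an ETS-type match (green squares) or a TATA-type match (orange triangles), by level class of the gene (x axis, mean CPM), over 16390 protein-coding genes. The CpG-rich share goes from 10.0% at 0 counts to 72.6% at 100 to 1000 CPM.

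The lineage lists were not alike in this respect. In the neural progenitor list 8 of 10 promoters were CpG-rich, and 2 of those 8 genes reached 10 CPM on average. None of 11 muscle, 11 blood, 5 epidermal and 6 fibroblast promoters was CpG-rich. In the germline list, 9 of 11 were, and 6 of those 9 genes reached 10 CPM on average, beside the 62.7% of all CpG-rich genes given above. Of the identity markers only Sox2 had a CpG-rich promoter by this measure.

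Agreement between the 2 libraries set the limits of these values. Across the 15289 genes, which are not independent replicates, log2(CPM + 1) in the libraries had a Pearson correlation of 0.949 and a Spearman correlation of 0.941. The libraries differed by more than counting error: the chi-square over 11069 genes was 4.78 times its degrees of freedom. The SD of the log2 ratio between them was 0.58 for genes at 10 to 100 CPM, 0.29 at 100 to 1000 and 0.23 at 1000 or more, where counting alone would give 0.32, 0.12 and 0.04. A difference of more than 2-fold was seen in 8.19% of genes in the lowest of these classes, in 8 of 1946 genes in the middle one and in none of the 112 genes in the highest.

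**Figure D5:**
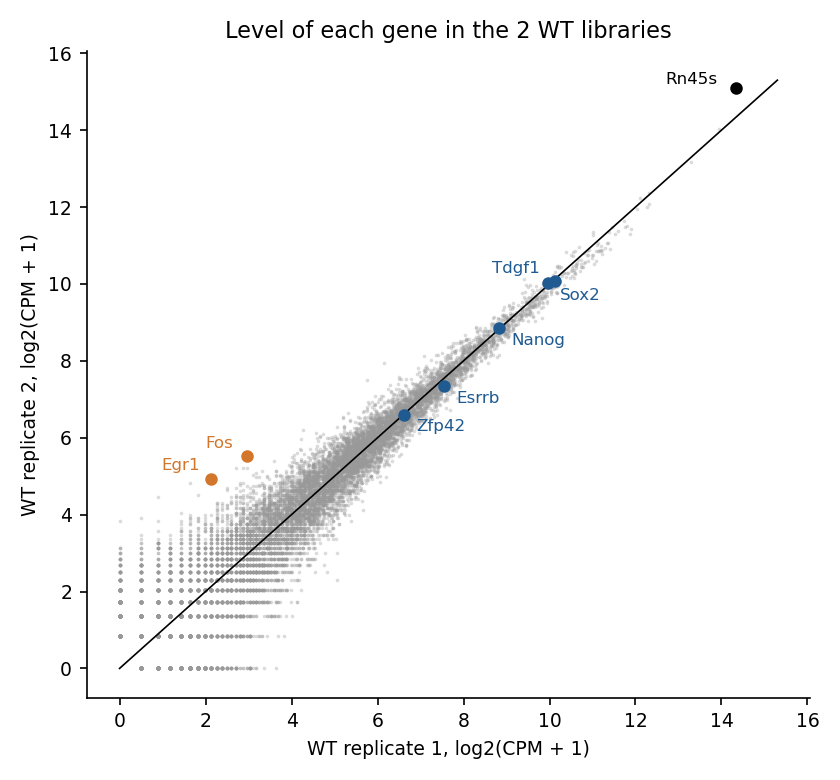
Level of each detected gene in WT replicate 1 (x axis) and WT replicate 2 (y axis), as log2(CPM + 1), with the line of equal values. The 5 identity markers (blue) lie on the line, while Fos and Egr1 (orange) and Rn45s (black) lie above it.

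Among 6276 genes at 20 CPM or more, the 10 that differed most were all higher in replicate 2. After Fos came Rragc, a GTPase of the mTORC1 pathway (13 and 46 counts), the DNA polymerase Polh (15 and 46), Dctn1 of the dynactin complex (16 and 46), the protease inhibitor Timp3 (19 and 42) and the actin regulator Pfn2 (43 and 93), and the others were Plagl1, Arl1, Actn1 and Peg12. Actn1, alpha-actinin, rested on the most counts, 165 and 316, or 69.8 and 246 CPM. Replicate 2 had relatively more reads in long genes: the median log2 ratio of replicate 2 to replicate 1 was -0.08 for genes with an interval under 10 kb and 0.10 for those over 50 kb, and the rank correlation with interval length over 6270 genes was 0.166. The part of gene length in the differences named above was not tested.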

How the data were processed

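The deposited values are raw counts of reads for each gene symbol, and each library has the same counts in the series table and in its own file. Tools listed in the submitters' processing notes include STAR 2.5.2b, featureCounts from Subread, Trimmomatic 0.36 and SAMtools 1.8, and the builds listed are GRCm38 and mm10. Per the labels' protocols, a 19 bp read served demultiplexing and a 72 bp read was sequenced. Not given in the sources used here are the library chemistry, the strand, any molecular identifiers and the treatment of multimapping reads. Of 25131 rows, 26 carry a date in place of a symbol and were left out of members and totals (0.136% and 0.158% of counts).

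CPM is the count per 1000000 counts of named genes, and means and SDs are over 2 libraries. Positions and gene types came from RefSeq (GRCm38.p6), which matched 25031 of 25105 rows, 24696 by symbol and 335 by synonym. Promoters are those listed first for a gene. The analysis used Python 3.11.15, pandas 2.3.3 and numpy 2.4.6, with TMM scaling from edgeR 4.0.16 in R 4.3.3 as an alternative, and the level calculations were tested on simulated data. With 1 group there is no contrast and no test.

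The members, gene lists, family patterns and gene pairs were chosen with earlier results of these data known. Genes were named by rule: the 30 with the highest mean CPM, members of the 26 lists and 22 pairs, the 3 highest of each of the 23 families, and the 10 with the largest log2 ratio between libraries at 20 CPM or more. The low ribosomal protein genes and the promoters shown were picked after their values were seen. Some genes are not reported here. Alternatives were the detection rule, thinning, scaling, totals, pseudocounts, thresholds, promoter choice and leaving out each library.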

Additional observations from a re-analysis of the deposited data

How the results depend on the processing

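The number of detected genes and the number at 10 CPM or more stayed within 1.5 times under every alternative run. With cytosolic ribosomal protein genes left out, the share of the top 100 genes was 21.97% in place of 23.6%. The correlation between libraries was 0.930 with a pseudocount of 0.5 CPM, 0.973 with 5 CPM, and 0.953 over genes at 10 CPM or more. Lineage genes that passed in both libraries numbered 57 at 1 CPM in place of 31 at 10 CPM. The CpG-rich share of genes at 10 CPM or more, 68.4%, was 72.7% when any listed promoter could count and 53.0% with a CpG ratio of 0.75, both chosen after seeing the data, while genes with 0 counts stood at 10.8% and 6.41%. Leaving out a library gave 68.1% to 68.5%. The causes were not tested, apart from the change of threshold itself. The 5 marker levels and the 17 list sums moved by less than 1 SD in every setting run, which leaving out 1 of 2 libraries gives by construction. Levels per kb of coding length were planned and not run, since coding lengths were not used here. No paired analysis was possible because the libraries form 1 group. With 1284358 and 2365580 counts in the libraries, genes near 1 CPM rest on 1 to 3 counts a library.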

Other observations

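Rows named for microRNAs had few reads: 39 of 1227 (3.18%) had a count, beside 60.9% of all named rows. Mir6236 (211 and 223 CPM), Mir684-1 (107 and 94.2) and Mir6516 (98.1 and 77.9) were highest, and the labels describe no small RNA library, so nothing is read from these rows about mature microRNAs. Among long non-coding RNAs, 829 of 2496 rows (33.2%) had a count and held 1.71% of reads, most of it Malat1 at 0.961%. Neat1 had 116 ± 5.31 CPM, and the imprinted RNAs H19 and Meg3 30.1 ± 2.90 and 29.5 ± 2.29.

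Reads fell on the Y-linked genes Eif2s3y (28.7 and 23.4 CPM), Ddx3y (8.45 and 15.6) and Uty (3 and 8 counts), with no count of Kdm5d. Xist had 43 and 19 counts (16.5 ± 2.39 CPM) and its antisense partner Tsix 5 and 0, and without knowledge of strand the reads of these overlapping genes cannot be told apart. On the X chromosome 28.8% of protein-coding genes reached 10 CPM on average, below each autosome, which ran from 30.0% on chromosome 7 to 48.0% on chromosome 12. Among genes at 1 CPM or more the X chromosome's median was 18.4 CPM, within the autosomal range of 16.3 to 27.4 CPM.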
